A study of Mus musculus with 24 samples.

Results

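The expression of 10 genes of the prostaglandin pathway was followed through sorted and cultured cells of the mouse liver. These are the cyclooxygenases Ptgs1 and Ptgs2, the terminal synthases Ptges, Ptgis and Ptgds, the prostaglandin E2 receptors Ptger1, Ptger2, Ptger3 and Ptger4, and the degrading enzyme Hpgd. The genes were taken by symbol, and all 10 were found among the 49568 gene rows of each of the 2 expression tables. The study asked how the mesenchyme around the portal bile ducts acts on ductal epithelium, and the question put to these genes was which cells hold transcripts of the synthases and which hold those of the receptors.

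In the homeostasis experiment, 4 fractions were sorted from the livers of each of 3 healthy littermates aged 12 weeks, lettered A, E and F. All of these mice were heterozygous for a Pdgfra-H2BGFP reporter (B6.129S4-Pdgfratm11(EGFP)Sor/J) on a C57BL/6 background, so that the nuclear GFP made from the Pdgfra locus stood for PDGFRα in the sort. One fraction held the epithelium, EpCAM+ ductal cells (DCs). Stroma was split by GFP and SCA1 into PDGFRα+SCA1+ cells, cells with GFP alone (PDGFRα+SCA1-) and cells with SCA1 alone (PDGFRα-SCA1+), and every sort was negative for CD45, CD11b and CD31. In the transwell experiment, cells came from wild-type C57BL/6 mice aged 8 to 12 weeks, and each of 6 groups had 2 replicates. EpCAM+ DCs were sequenced on day 0, after 15 days as organoids in growth-factor-rich expansion medium (EM), or after 15 days as organoids that shared a transwell with SCA1+ mesenchymal cells (Msc) in growth-factor-reduced mesenchymal medium. SCA1+ Msc were sequenced on day 0, after 15 days alone or after 15 days opposite DCs. Before those 15 days the cultured Msc had been expanded on plastic in mesenchymal medium, which the DCs had not, so their time in culture was longer. They were sorted as SCA1+ cells negative for CD45, CD11b and CD31, without PDGFRα, so this group was a wider gate than PDGFRα+SCA1+. DCs of the transwell experiment came from 2 littermates and Msc from 2 others, and organoids in EM differed from co-cultured organoids in medium as well as in company, so that medium and stroma cannot be told apart.

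Prostaglandins are lipid mediators made from arachidonic acid, which phospholipases release from membranes. The cyclooxygenases PTGS1 (COX-1, often constitutive) and PTGS2 (COX-2, an immediate early gene product induced by mitogens, cytokines and cell stress) turn it into the unstable prostaglandin H2. Terminal synthases then set the product, with PTGES making prostaglandin E2, PTGIS prostacyclin and PTGDS prostaglandin D2. Prostaglandin E2 acts on the receptors EP1 to EP4, encoded by Ptger1 to Ptger4, of which EP2 and EP4 raise cyclic AMP, EP3 mostly lowers it and EP1 raises calcium. HPGD, or 15-hydroxyprostaglandin dehydrogenase, inactivates prostaglandins that transporters have taken up. In many epithelia fibroblasts are a source of prostaglandin E2 and epithelial EP4 a receptor for it.

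On GRCm38 with the GENCODE M21 annotation the cyclooxygenases are unlinked, with Ptgs1 (ENSMUSG00000047250.13) on chromosome 2 from 36230426 to 36252272 and Ptgs2 (ENSMUSG00000032487.8) on chromosome 1 from 150100031 to 150108227, both on the plus strand. Ptges, Ptgis and Ptgds also lie on chromosome 2, on the minus strand, at 30889471 to 30929863, 167191805 to 167240604 and 25466709 to 25470046. Ptger4 (ENSMUSG00000039942.15) is at 5206661 to 5244187 of chromosome 15, minus strand. Since Smart-seq2 libraries keep no strand, reads on exons that a gene shares with an antisense neighbour cannot be told apart. This touched 15.3% of the exon bases of Ptger4, shared with Gm15937, and 6.08% of those of Ptgis, shared with 1110018N20Rik.

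The 250 bases before the start of Ptgs1 and Ptgs2 are shown because these isozymes catalyse the same step and had opposite orders of level across the stromal fractions. RefSeq promoters (GRCm38.p6) were matched for 8 of the 10 members. The Ptgs1 window lies at chr2:36230176-36230425 and the Ptgs2 window at chr1:150099781-150100030, both on the plus strand, written 5′ to 3′ with motif matches in capitals.
Ptgs1: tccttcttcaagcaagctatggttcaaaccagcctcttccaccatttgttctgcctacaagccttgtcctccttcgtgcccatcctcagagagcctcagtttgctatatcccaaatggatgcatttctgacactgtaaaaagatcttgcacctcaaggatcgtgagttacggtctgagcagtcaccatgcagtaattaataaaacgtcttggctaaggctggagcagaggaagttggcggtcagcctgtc
Ptgs2: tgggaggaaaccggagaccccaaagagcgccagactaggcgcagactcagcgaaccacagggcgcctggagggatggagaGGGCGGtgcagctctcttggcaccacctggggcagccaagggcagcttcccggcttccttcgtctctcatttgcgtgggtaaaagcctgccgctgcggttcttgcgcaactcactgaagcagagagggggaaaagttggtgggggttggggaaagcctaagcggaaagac
The Ptgs2 window held 13 CpG and 61.6% G or C, and that of Ptgs1 held 5 CpG and 48.0% G or C, against a median of 6 CpG over 32851 promoter windows of the same length. In all, 4 motifs were searched on both strands, and no match found in the windows shown overlapped another. GGGCGG, which 32.7% of all windows hold, occurred in the Ptgs2 window 170 bases before the start. The motif TATAAA, held by 12.4% of all windows, was in neither of them. The same was true of CACGTG, which 6.02% of windows hold, and of the motif CGTCA, which 17.8% hold. Bases outside these windows were not searched, so a motif past the annotated start, or further before it, would not be seen. The absences therefore hold for the windows and not for the promoters as a whole.

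Depth, as recovered from the values, ran from 19.6 M to 25.7 M reads a library for fresh fractions and from 19.3 M to 28.1 M for transwell libraries. For groups at 0 a limit of 3 reads was used, which covers counting error only. Homeostasis values are given as deposited. They are length-scaled like TPM, but each was 0.722 to 1.39 times its TPM, since the totals of the samples had been reused in a cycle down the table. Of 6 markers each, the ductal list summed to 56240 to 75890 in DCs and to at most 380.2 in PDGFRα+ cells, and the mesenchymal list summed to 23660 to 46300 in PDGFRα+ cells and to at most 68.9 in DCs. The PDGFRα-SCA1+ fraction, labelled mesenchymal, summed to 273 to 480 on the mesenchymal list and to 2753 to 2867 on the endothelial list, all 6 genes of which were present, Pecam1 (the gene of CD31, against which it was sorted) at 726 to 929. It is therefore called by its sort. In bulk samples of this kind, fewer cells of a type and less RNA per cell cannot be told apart.

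In freshly sorted cells Ptgs2, Ptgis and Ptges were high in PDGFRα+ mesenchyme, Ptgds was found in DCs, and PDGFRα-SCA1+ cells held the other cyclooxygenase and the degrading enzyme. PDGFRα+SCA1+ cells had higher Ptgs1, Ptgs2, Ptges, Ptgis and Ptger3 and lower Ptgds than DCs, that is 5 members higher and 1 lower of 9 tested, where 23.8% of all 17028 genes tested were called. In PDGFRα+SCA1- cells against DCs the calls were also 5 higher and 1 lower, with 28.8% of all genes called. PDGFRα-SCA1+ cells had 2 members higher and 2 lower than DCs, with 22.8% of all genes called. Calls are at an adjusted p under 0.05 (limma on log2(value + 1), two-sided, Benjamini-Hochberg over all genes). The median log2 difference of the 9 members was 2.13, 2.18 and 0.71 in these comparisons, and that of all genes −0.28, −0.47 and −0.04. Ptger1 did not pass the filter on low values. These comparisons share their DC samples.

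**Figure D1:**
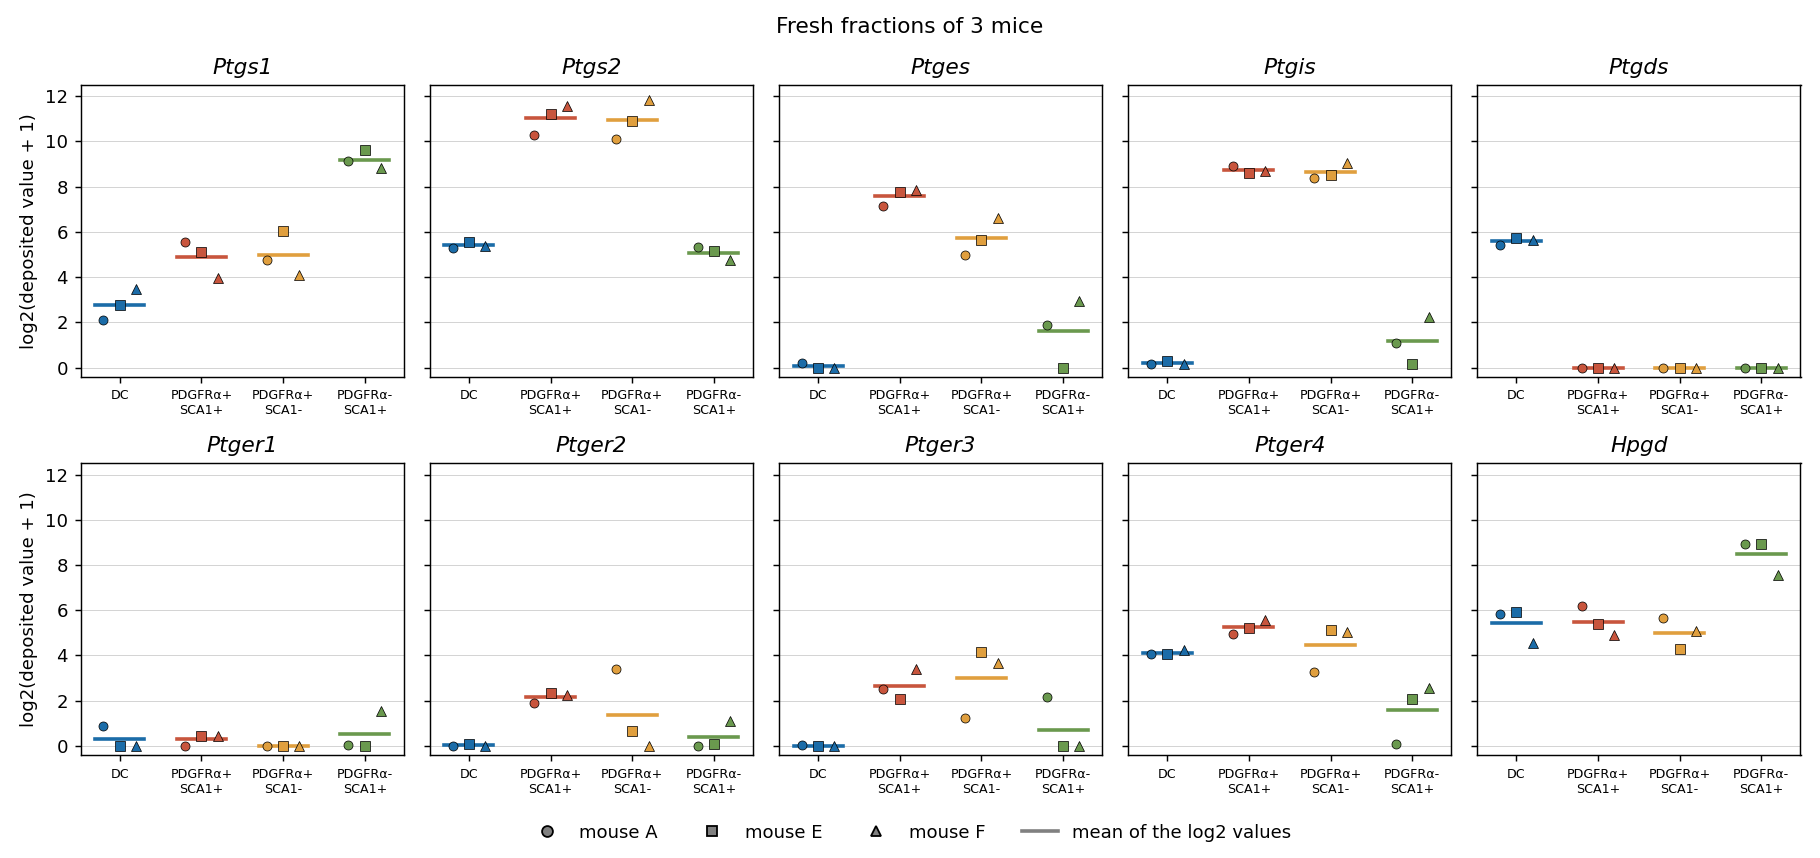
Log2(deposited value + 1) of the 10 members in the 4 fresh fractions, 1 panel per gene. Points are the mice A, E and F (n = 3) and lines the means of the log2 values. Ptgs2, Ptges and Ptgis are high in both PDGFRα+ fractions, Ptgs1 and Hpgd in PDGFRα-SCA1+ cells, and Ptgds is above 0 in DCs and at 0 in the 9 stromal samples.

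Ptgs2 had deposited values of 1259, 2380 and 3020 in the PDGFRα+SCA1+ libraries (here and below in the order A, E, F) and of 1094, 1897 and 3630 in PDGFRα+SCA1- cells. In DCs it stood at 37.9, 46.0 and 40.9, and in PDGFRα-SCA1+ cells at 39.1, 35.1 and 26.15. The PDGFRα+ fractions overlapped each other, the DC and PDGFRα-SCA1+ samples overlapped each other, and every PDGFRα+ sample was above every other sample. The mean was 53.35-fold higher in PDGFRα+SCA1+ cells and 53.0-fold higher in PDGFRα+SCA1- cells than in DCs, which was 5.62 (SE 0.41) and 5.53 (SE 0.41) in log2 units, with limma adjusted p of 1.18e-06 and 1.33e-06. Ptgs2 alone took 0.205% to 0.32% of the recovered reads of PDGFRα+SCA1+ samples and had ranks of 45 to 92 by value among the genes of a sample, whereas in DCs its ranks were 3625 to 4314. In PDGFRα-SCA1+ cells against DCs its log2 difference was −0.32 (95% interval −1.21 to 0.57, adjusted p 0.649, limma).

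Ptgs1 went the other way. It stood at 558.5, 776.5 and 448 in PDGFRα-SCA1+ cells, 45.7, 33.7 and 14.8 in PDGFRα+SCA1+ cells, 25.8, 65.2 and 16.2 in their SCA1- counterparts, and 3.28, 5.82 and 10.2 in DCs. PDGFRα-SCA1+ cells were above all others, DCs were below all others, and the PDGFRα+ fractions overlapped. The mean in PDGFRα-SCA1+ cells was 92.6-fold that of DCs, a log2 difference of 6.40 (SE 0.55, adjusted p 5.28e-06, limma). Both PDGFRα+ fractions were above DCs by less, at 2.10 with SCA1 (SE 0.55, limma adjusted p 0.0154) and 2.18 without it (SE 0.55, limma adjusted p 0.0111). The first lost its call without the DC sample of mouse A (1.76, adjusted p 0.0701), the PDGFRα+SCA1+ sample of mouse A (1.76, adjusted p 0.0723) or that of mouse E (1.98, adjusted p 0.0578), and the second without the DC sample of mouse A (1.84, adjusted p 0.0524) or with only its own 2 groups fitted (adjusted p 0.064), all with limma.

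Among terminal synthases, Ptgis, the prostacyclin synthase, reached 486.5, 383 and 418 in the PDGFRα+SCA1+ sort, and 331, 368 and 530 where SCA1 was absent. It was 0.108, 0.21 and 0.119 in DCs, which is 2 to 4 reads, and 1.13, 0.105 and 3.695 in PDGFRα-SCA1+ cells. The fitted log2 differences from DCs were 8.55 (SE 0.46, limma adjusted p 1.03e-07) for SCA1+ and 8.46 (SE 0.46, limma adjusted p 1.27e-07) for SCA1- cells of the PDGFRα+ sorts. For members with so few reads on one side these values depend on the pseudocount of 1 and are no fold.

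Ptges, the inducible microsomal prostaglandin E synthase, stood at 139, 218 and 233 in PDGFRα+SCA1+ cells and at 30.4, 49.4 and 95.6 in PDGFRα+SCA1- cells. DCs had 4, 0 and 0 reads of it, and PDGFRα-SCA1+ cells had values of 2.63, 0 and 6.79. The order was therefore PDGFRα+SCA1+, then PDGFRα+SCA1-, with no overlap, and then the other fractions, which overlapped. Its fitted differences from DCs were 7.53 (SE 0.68, limma adjusted p 6.48e-06), and then 5.68 (SE 0.68, limma adjusted p 5.65e-05).

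Ptgds, the lipocalin-type prostaglandin D synthase, was the member with the opposite pattern. DCs had 41.7, 52.3 and 48.4, with 369 to 528 reads, and all 9 stromal samples had 0 reads. Against the floor of 3 reads, taken as the mean over the group, it was at least 154-fold higher in DCs than in each stromal fraction, with a fitted log2 difference of −5.59 (SE 0.41, adjusted p 1.18e-06 in PDGFRα+SCA1+ cells, limma).

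Of the receptors, Ptger4 was the one with more than 26 reads in any DC sample, at 15.6, 15.75 and 17.6 (650 to 760 reads). It was 30.0, 35.8 and 46.6 in PDGFRα+SCA1+ cells, 8.665, 34.0 and 31.4 in PDGFRα+SCA1- cells, and 0.0721, 3.17 and 4.90 in PDGFRα-SCA1+ cells. PDGFRα+SCA1+ samples were above all DC samples, by 1.13 on the log2 scale (95% interval −0.30 to 2.56, adjusted p 0.25, limma), which did not pass the test. With only these 2 groups fitted, the same difference was called (SE 0.226, adjusted p 0.00847, limma). PDGFRα+SCA1- cells overlapped DCs, with a difference of 0.36 (95% interval −1.07 to 1.79, adjusted p 0.718, limma). PDGFRα-SCA1+ cells were lower than DCs by −2.54 (SE 0.66, adjusted p 0.0139, limma), a call that was lost when these fractions were fitted alone (adjusted p 0.0522, limma).

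The cAMP-raising receptor Ptger2 had 0, 1 and 0 reads in DCs and values of 2.69, 4.03 and 3.69 in PDGFRα+SCA1+ cells. In PDGFRα+SCA1- cells it spread from 0 to 9.50. It missed the threshold in PDGFRα+SCA1+ cells against DCs (2.13, SE 0.73, adjusted p 0.0538, limma), though these samples did not overlap. It was called with only these 2 groups fitted (adjusted p 0.0018, limma) and with a pseudocount of 0.1 (adjusted p 0.0348, limma). The same held without the PDGFRα+SCA1- sample of mouse A (adjusted p 0.00339) or of mouse F (adjusted p 0.0305, limma). Over all alternatives run the adjusted p reached 0.132 (limma).

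Ptger3, the receptor that lowers cAMP, had 1, 0 and 0 reads in DCs. It reached 4.63, 3.20 and 9.48 in PDGFRα+SCA1+ cells and 1.35, 16.8 and 11.7 in PDGFRα+SCA1- cells, and 3.48, 0 and 0 in PDGFRα-SCA1+ cells. The differences from DCs were 2.64 (SE 0.82, limma adjusted p 0.0347) with SCA1 and 3.0045 (SE 0.82, limma adjusted p 0.0162) without it. With the mouse as a block the first had an adjusted p of 0.0574 (limma), and without any single sample of the 6 compared one of 0.0536 to 0.118. The second lost its call without any DC sample or without the PDGFRα+SCA1- sample of mouse E (adjusted p 0.0503 to 0.0522, limma), and with only the 2 groups fitted (adjusted p 0.0508). Ptger1 was at most 1.93, in 1 PDGFRα-SCA1+ sample.

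Hpgd stood at 489, 491 and 187 in PDGFRα-SCA1+ cells. It was 56.2, 59.6 and 22.1 in DCs, 72.45, 40.4 and 28.5 in PDGFRα+SCA1+ cells and 49.98, 18.2 and 32.95 in their SCA1- counterparts, and these 3 fractions overlapped. The mean in PDGFRα-SCA1+ cells was 8.46-fold that of DCs (log2 difference 3.05, SE 0.53, adjusted p 0.00117, limma). Mouse F had the lowest value in all fractions but PDGFRα+SCA1- cells. In PDGFRα-SCA1+ cells the endothelial list, given above, was high together with Ptgs1 and Hpgd. The mast cell list, at 70.6 to 126 there and at most 4.48 in the other fresh fractions, was high as well. In the same cells the mesothelial list summed to 292.8 to 544.5 and the ductal list to 79.3 to 3784. The hepatocyte list summed to 3374 to 7862, against 5806 to 6974 in DCs. The part of any of these cell types in the Ptgs1 and Hpgd values was not tested.

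**Figure D2:**
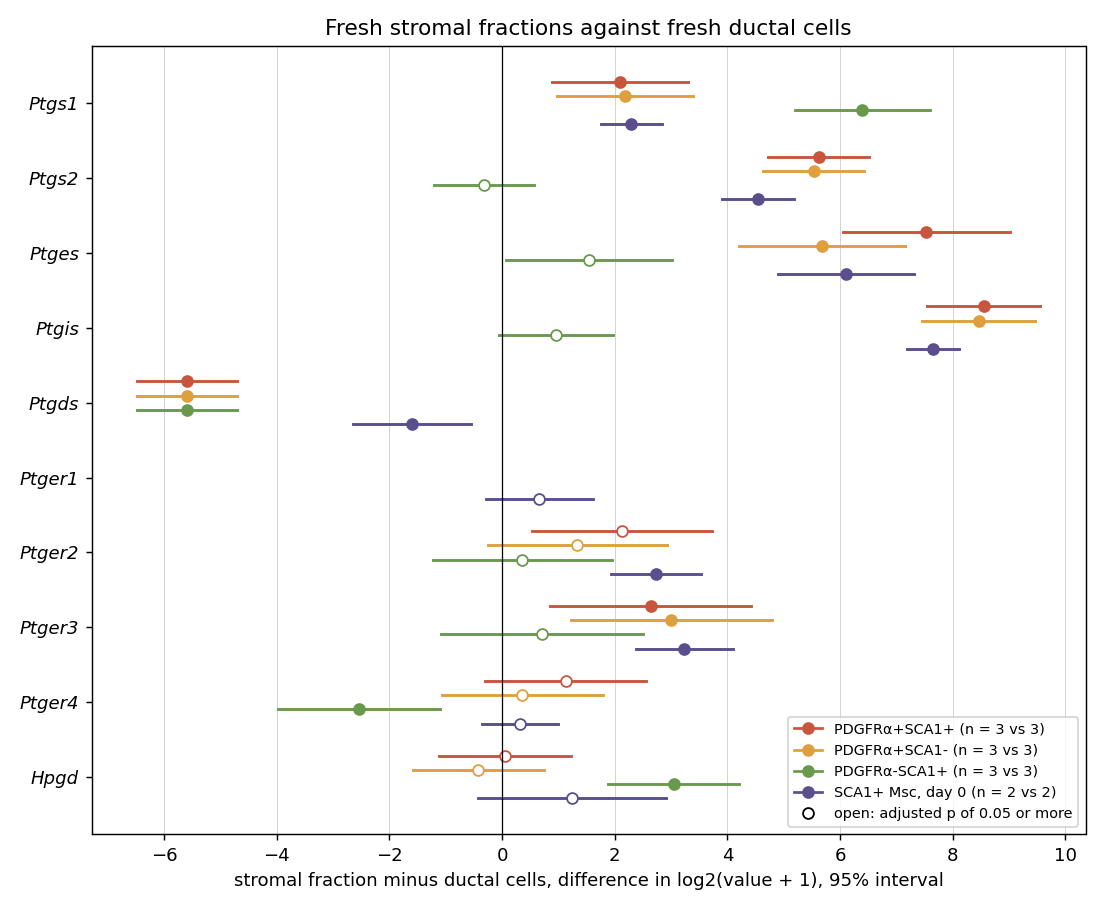
Differences in log2(value + 1) between each fresh stromal fraction and DCs (points) with 95% intervals (lines) from limma, for the homeostasis fractions (n = 3 against 3) and the SCA1+ Msc of day 0 in the transwell experiment (n = 2 against 2). Filled points have an adjusted p under 0.05. Ptgs2, Ptges and Ptgis lie to the right of 0 for PDGFRα+ fractions and Msc, and Ptgds to the left for all 4 fractions.

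No member differed between PDGFRα+SCA1+ and PDGFRα+SCA1- cells at an adjusted p under 0.05 (limma), where 0.587% of all genes, 100 of 17028, were called, or 20 with the mouse as a block. At an unadjusted p under 0.05 there were 1985 genes, and 1 of the 9 members tested, Ptges. Its mean was 3.36-fold higher in PDGFRα+SCA1+ cells, it was higher in 3 of 3 mice, and the log2 difference was 1.85 (95% interval 0.37 to 3.33, adjusted p 0.306, limma). Ptgs2 differed by 0.09 (−0.80 to 0.98, adjusted p 0.979), Ptgis by 0.09 (−0.92 to 1.10, adjusted p 0.986) and Ptgs1 by −0.08 (−1.29 to 1.12, adjusted p 0.995) (95% intervals, limma).

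PDGFRα-SCA1+ cells and PDGFRα+SCA1+ cells, both of which carry SCA1, were set apart by 6 of the 9 members tested, 2 higher and 4 lower in PDGFRα-SCA1+ cells, where 18.8% of all genes were called. Ptgs2 was 66.4-fold lower on the mean (−5.94, SE 0.41, adjusted p 1.74e-06, limma), with Ptges at −5.98 and Ptgis at −7.59. Ptger4 was lower by −3.67 (SE 0.66, adjusted p 0.00183, limma). Ptgs1 was 18.9-fold higher (4.30, SE 0.55, adjusted p 0.000164, limma) and Hpgd 8.26-fold higher (2.99, SE 0.53, adjusted p 0.0018, limma). Each of these 6 calls remained under all 20 alternatives run.

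The cells sorted on day 0 for the transwell experiment, came from other mice and their values are in TPM. The labels do not tie the 2 replicates of a group to single mice, though the paper calls them independent biological replicates. The p-values measure the spread between these samples. SCA1+ Msc had 6 members higher and 1 lower than DCs of 10 tested, with 46.1% of all 18136 genes tested called. Ptgs2 was at 1229 and 956 TPM in Msc and at 50.8 and 41.2 in DCs, 23.75-fold apart on the mean (4.54, SE 0.28, adjusted p 1.95e-06, limma). Ptgis was at 438 and 327 TPM against 0.634 and 1.18 (7.65, SE 0.21, adjusted p 2.23e-08, limma), and Ptges at 114 and 100.5 against 1.45 and 0 (6.11, SE 0.54, adjusted p 1.5e-05, limma). In each of these genes both Msc samples were far above both DC samples.

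Ptgs1 was at 40.2 and 42.7 TPM in day 0 Msc and at 6.07 and 9.55 in DCs (2.30, SE 0.24, adjusted p 4.46e-05, limma). The endothelial list summed to 216 to 243 TPM in these Msc. Ptger2 at 7.94 and 4.075 TPM and Ptger3 at 9.91 and 7.80 were higher than in DCs, which had at most 4 reads of either. Ptger4 was at 30.1 and 19.9 TPM in Msc and 19.7 and 19.45 in DCs, a difference of 0.31 (95% interval −0.36 to 0.98, adjusted p 0.443, limma). Ptgds was at 17.05 and 6.37 TPM in Msc, where the homeostasis stroma had none, and at 45.4 and 25.1 in DCs. The ductal list summed to 1192 to 2539 TPM and the hepatocyte list to 18350 to 23020 in day 0 Msc, while the hepatocyte list summed to at most 400.3 in cultured Msc, and the part of such transcripts in the Ptgds and Hpgd values was not tested. The Ptgds difference of −1.59 (adjusted p 0.0185, limma) was lost without DC replicate 1 (−1.18, adjusted p 0.144) or without Msc replicate 2 (−0.95, adjusted p 0.125), and with only these groups fitted (adjusted p 0.166).

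**Figure D3:**
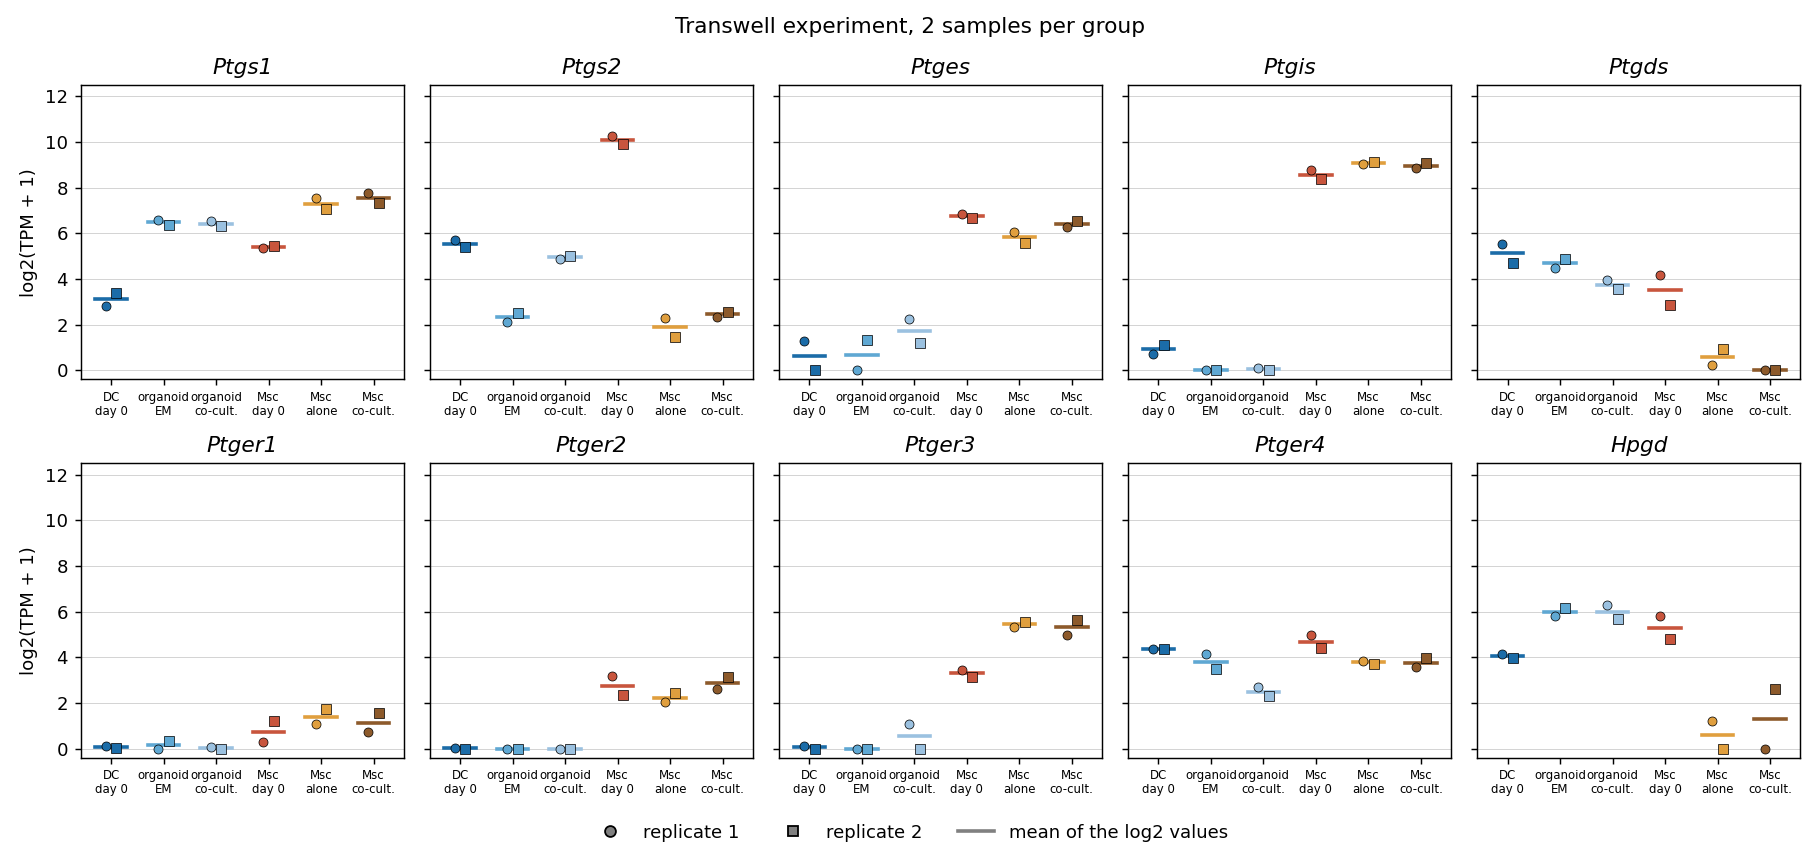
Log2(TPM + 1) of the 10 members in the 6 transwell groups, 1 panel per gene. Points are replicates 1 and 2 and lines the means of the log2 values. Ptgs2 is lower in EM organoids than in DCs of day 0, lower in cultured than in day 0 Msc, and higher in co-cultured than in EM organoids, while Ptgis stays high in the 3 Msc groups and near 0 in the 3 ductal groups.

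Between day 0 and 15 days in EM the cyclooxygenases of ductal cells changed order. Ptgs1 rose from 6.07 and 9.55 TPM to 94.5 and 82.1, an 11.3-fold higher mean (3.37, SE 0.24, adjusted p 5.05e-06, limma), and Ptgs2 fell from 50.8 and 41.2 TPM to 3.40 and 4.72, an 11.3-fold lower mean (−3.22, SE 0.28, adjusted p 1.91e-05, limma). In all 1 member was higher and 2 were lower in EM organoids than in DCs of day 0, with 44.4% of all genes called. The other lower one was Ptgis, at 14 and 19 reads in DCs and none in EM organoids (−0.92, SE 0.21, adjusted p 0.00549, limma), and it lost its call on RPKM as deposited (−0.37, adjusted p 0.0899, limma). The mesenchymal list summed to 61.8 to 79.9 TPM in day 0 DCs and to 1.10 to 6.21 in EM organoids, and its part in these Ptgis values was not tested. Ptgs1 and Ptgs2 kept theirs under all 20 alternatives run.

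Hpgd, at 16.6 and 14.8 TPM in DCs of day 0, was at 55.2 and 70.0 in EM organoids and 78.0 and 50.4 in co-cultured organoids. The groups did not overlap, but the adjusted p of 0.0614 and 0.062 (limma) missed the threshold. Without Msc co-culture replicate 1 or 2, whose Hpgd was 0 and 5.10 TPM, they were 0.0101 to 0.0107. Ptger4 was at 16.7 and 10.2 TPM in EM organoids, lower than in DCs by −0.55 (95% interval −1.22 to 0.12, adjusted p 0.172, limma). Ptger2 and Ptger3 had 0 reads in both EM samples, and Ptges had 0 and 37.

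In co-cultured organoids 1 member was higher and 3 were lower than in DCs of day 0, with 42.3% of all genes called. Ptgs1 again rose, to 91.6 and 78.1 TPM (3.31, SE 0.24, adjusted p 5.96e-06, limma). Ptgs2, at 28.6 and 31.0 TPM, lay below both day 0 samples by −0.60 (95% interval −1.24 to 0.03, adjusted p 0.12, limma). Ptger4 fell to 5.55 and 3.89 TPM, 4.145-fold below DCs on the mean (−1.86, SE 0.30, adjusted p 0.000838, limma). Ptgds at 14.3 and 10.7 TPM was lower by −1.38 (adjusted p 0.0378, limma), a call that was lost without any sample of either group but DC replicate 2 and without 4 other samples (adjusted p 0.0539 to 0.237). Ptgis, at 2 and 0 reads, was lower by −0.86 (adjusted p 0.00829, limma). The call was lost without DC replicate 2, where the difference was −0.65. It was also lost on RPKM as deposited (−0.35, adjusted p 0.113), with quantile normalization (adjusted p 0.0508) and with only these groups fitted (adjusted p 0.0501, limma). The mesenchymal list was at 2.20 to 14.8 TPM in co-cultured organoids, below its sum in day 0 DCs, and its part in the Ptgis difference was not tested.

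The 2 kinds of organoid differed from each other in 2 members, 1 higher and 1 lower in co-culture, with 12.9% of all genes called. Ptgs2 was 7.34-fold higher in co-cultured than in EM organoids on the mean, with 28.6 and 31.0 TPM against 3.40 and 4.72 (2.62, SE 0.28, adjusted p 0.000387, limma), and stayed called under all 20 alternatives run. Ptger4 was 2.84-fold lower (−1.31, SE 0.30, adjusted p 0.0191, limma). Without EM replicate 1 the Ptger4 difference was −0.98 (adjusted p 0.139, limma) and without co-culture replicate 2 −1.10 (adjusted p 0.121, limma), and with only the organoids fitted the adjusted p was 0.167. Ptgs1 differed by −0.06 (95% interval −0.59 to 0.48, adjusted p 0.997, limma). Mesenchymal markers summed to 2.20 to 14.8 TPM in co-cultured organoids, with Ptgis at 2 and 0 reads and Ptger2 at 0. The mesothelial list summed to 300.1 to 326.8 TPM in EM and 3882 to 4504 in co-cultured organoids, where 3 of its 6 genes (Upk1b, Lrrn4 and Wt1) were at 0 and Msln was higher (3.74, adjusted p 0.0393, limma). The macrophage list summed to 24.97 to 28.47 against 90.22 to 96.03 TPM, with Adgre1, Clec4f and C1qa at 0 in both. The part of these lists in the Ptgs2 and Ptger4 values was not tested.

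In Msc the largest change of any member was the fall of Ptgs2 from freshly sorted to cultured cells. It stood at 1229 and 956 TPM on day 0 and at 3.90 and 1.75 after 15 days alone, a 387-fold lower mean (−8.21, SE 0.28, adjusted p 9.63e-08, limma). Msc after 15 days alone differed from day 0 Msc in 6 of the 10 members, 2 higher and 4 lower, with 44.8% of all genes called. Ptgs1 rose from 40.2 and 42.7 TPM to 185.5 and 131.5 (1.89, SE 0.24, adjusted p 0.000189, limma), and Ptger3 from 9.91 and 7.80 to 39.3 and 45.55 TPM, 4.79-fold (2.14, SE 0.38, adjusted p 0.00153, limma). Hpgd fell from 54.7 and 27.0 TPM to 1.32 and 0 (−4.70, SE 0.74, adjusted p 0.000726, limma), and Ptgds from 17.05 and 6.37 TPM to 0.158 and 0.906 (−2.96, SE 0.46, adjusted p 0.0007, limma). In Msc alone the hepatocyte list summed to 5.68 to 12.8 TPM, against 18350 to 23020 on day 0. The endothelial list summed to 123.8 to 193.4 TPM, against 215.9 to 243.3. The macrophage list was higher, at 385.2 to 623.3 against 190.8 to 253.8 TPM. So was the smooth muscle list, at 3168 to 3479 against 598.3 to 803.6 TPM. The part of these lists, and of digestion and sorting before day 0, in these changes was not tested.

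Neither Ptgis nor Ptges passed the test. Ptgis was at 526 and 557 TPM in Msc alone against 438 and 327 on day 0 (0.51, 95% interval 0.05 to 0.98, adjusted p 0.0719, limma), and was called higher without either DC replicate of day 0 (0.51, adjusted p 0.0471 and 0.0477, limma) or without Msc day 0 replicate 1 (0.72, adjusted p 0.0294, limma). Ptges was at 66.6 and 46.95 TPM against 114 and 100.5 (−0.92, 95% interval −2.13 to 0.28, adjusted p 0.196, limma). Ptger4 at 13.3 and 12.05 TPM was lower by −0.90 (adjusted p 0.0342, limma), and this was lost without either DC replicate of day 0 (adjusted p 0.0537), without Msc day 0 replicate 1 (−0.61, adjusted p 0.178), or without Msc alone replicate 1 or 2 (adjusted p 0.0868 and 0.13). With only these groups fitted the adjusted p of Ptgds was 0.0715 and that of Ptger4 0.115, and Ptger3 lost its call with a pseudocount of 0.1 (adjusted p 0.102, limma).

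Msc kept opposite DCs did not differ from Msc alone in any member at an adjusted p under 0.05 (limma), with 0.127% of all genes, 23, called, and 1263 at an unadjusted p under 0.05, none of them a member. Ptgs2 was at 4.10 and 4.87 TPM in co-cultured Msc (0.58, 95% interval −0.06 to 1.22, adjusted p 0.77, limma). Ptges was at 76.5 and 91.0 TPM, above both samples of Msc alone (0.57, 95% interval −0.64 to 1.77, adjusted p 0.952, limma). Ptgs1 at 215 and 160 TPM (0.25, −0.29 to 0.78, adjusted p 0.954) and Ptgis at 460 and 532 TPM (−0.13, −0.60 to 0.34, adjusted p 1.0) overlapped Msc alone, as did Ptger4 at 10.8 and 14.5 TPM (−0.02, −0.69 to 0.66, adjusted p 1.0), with 95% intervals from limma.

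On day 15 of co-culture the cells on the 2 sides of the membrane differed in 9 of the 10 members, 6 higher and 3 lower in Msc, with 36.7% of all genes called. Of the synthases, Ptgis (8.89, SE 0.21, adjusted p 3.86e-09, limma) and Ptges, 33.2-fold (4.67, SE 0.54, adjusted p 8.55e-05, limma), were higher in Msc, and Ptgs1 was 2.21-fold higher (1.13, SE 0.24, adjusted p 0.00431, limma). Ptgs2 had changed sides and was 6.64-fold lower in Msc than in the organoids (−2.49, SE 0.28, adjusted p 8.23e-05, limma). Ptgds, at 0 reads in co-cultured Msc, was at least 46.35-fold higher in organoids.

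All receptors called were higher in co-cultured Msc than in the organoids. Ptger3 was at 30.8 and 48.85 TPM against 1.10 and 0 (4.78, SE 0.38, adjusted p 7e-06, limma). Ptger2 was at 5.06 and 7.67 TPM with 0 reads in both organoid samples, at least 63.95-fold higher (2.86, SE 0.36, adjusted p 0.000151, limma). Ptger4 was at 10.8 and 14.5 TPM against 5.55 and 3.89 (1.26, SE 0.30, adjusted p 0.00837, limma), which was lost without organoid replicate 2 (1.05, adjusted p 0.0684) or Msc replicate 2 (1.06, adjusted p 0.0656) and with only these groups fitted (adjusted p 0.0598). Hpgd was at 0 and 5.10 TPM in Msc and 78.0 and 50.4 in organoids (−4.69, SE 0.74, adjusted p 0.000731, limma), and with only these groups fitted its adjusted p was 0.0683.

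The change from day 0 to co-culture was also compared between the lineages in one model, as the change in ductal cells minus that in Msc, which also had the longer time in culture. It differed in 5 of the 10 members, 4 higher and 1 lower, with 28.3% of all genes called. For Ptgs2 the difference of the changes was 7.03 (SE 0.40, adjusted p 6.3e-06, limma), with means that fell from 46.0 to 29.8 TPM in ductal cells and from 1093 to 4.49 in Msc. For Hpgd it was 5.93 (SE 1.05, adjusted p 0.00295, limma), with a mean that rose from 15.7 to 64.2 TPM in ductal cells and fell from 40.85 to 2.55 in Msc. Both remained called under all 19 alternatives run. The differences of Ptgds (2.15, adjusted p 0.0363), Ptgs1 (1.17, adjusted p 0.0286) and Ptgis (−1.24, adjusted p 0.0122, limma) each lost their call when 1 sample or another was left out. Ptgis did so without Msc co-culture replicate 2 (−1.14, adjusted p 0.0534). Ptgs1 did so without 6 samples in turn (0.88 to 1.28, adjusted p 0.0551 to 0.102), and Ptgds without 8 (1.503 to 2.34, adjusted p 0.0544 to 0.133). The samples were DC day 0 replicate 1, both co-cultured organoids, both Msc of day 0 and Msc co-culture replicate 2 for Ptgs1. For Ptgds they were DC day 0 replicate 2, both EM organoids, both co-cultured organoids, Msc day 0 replicate 1 and both co-cultured Msc. Ptgs1 also lost its call with an untrended prior (adjusted p 0.055, limma) and Ptgis on RPKM as deposited (adjusted p 0.0567, limma). Ptgds did so on RPKM (adjusted p 0.152), with no filter on low values (adjusted p 0.065) and with quantile normalization (adjusted p 0.0575, limma). The ductal change of Ptgis was from 14 and 19 reads to 2 and 0, so its difference depends on the pseudocount of 1. The parts of the hepatocyte and ductal lists of day 0 Msc, and of the mesenchymal list of day 0 DCs, in the changes of these 5 members were not tested.

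Because values are per length, the isozymes can be set against each other within a sample. Ptgs2 made up 97.2% to 99.5% of Ptgs1 plus Ptgs2 in PDGFRα+SCA1+ cells, 97.4% to 99.5% in their SCA1- counterparts, 83.6% to 90.7% in DCs and 4.06% to 6.89% in PDGFRα-SCA1+ cells, with the reused totals undone. It was 95.7% to 96.8% in day 0 Msc and 1.31% to 2.95% in cultured Msc. In ductal cells it was 81.2% to 89.3% on day 0, 3.47% to 5.44% in EM organoids and 23.8% to 28.4% in co-cultured organoids. The sum of both genes was 33.1 to 52.2 TPM in DCs and 1151 to 3656 in PDGFRα+ cells of the homeostasis experiment, and 86.8 to 120 TPM in organoids and 133 to 219 in cultured Msc.

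**Figure D4:**
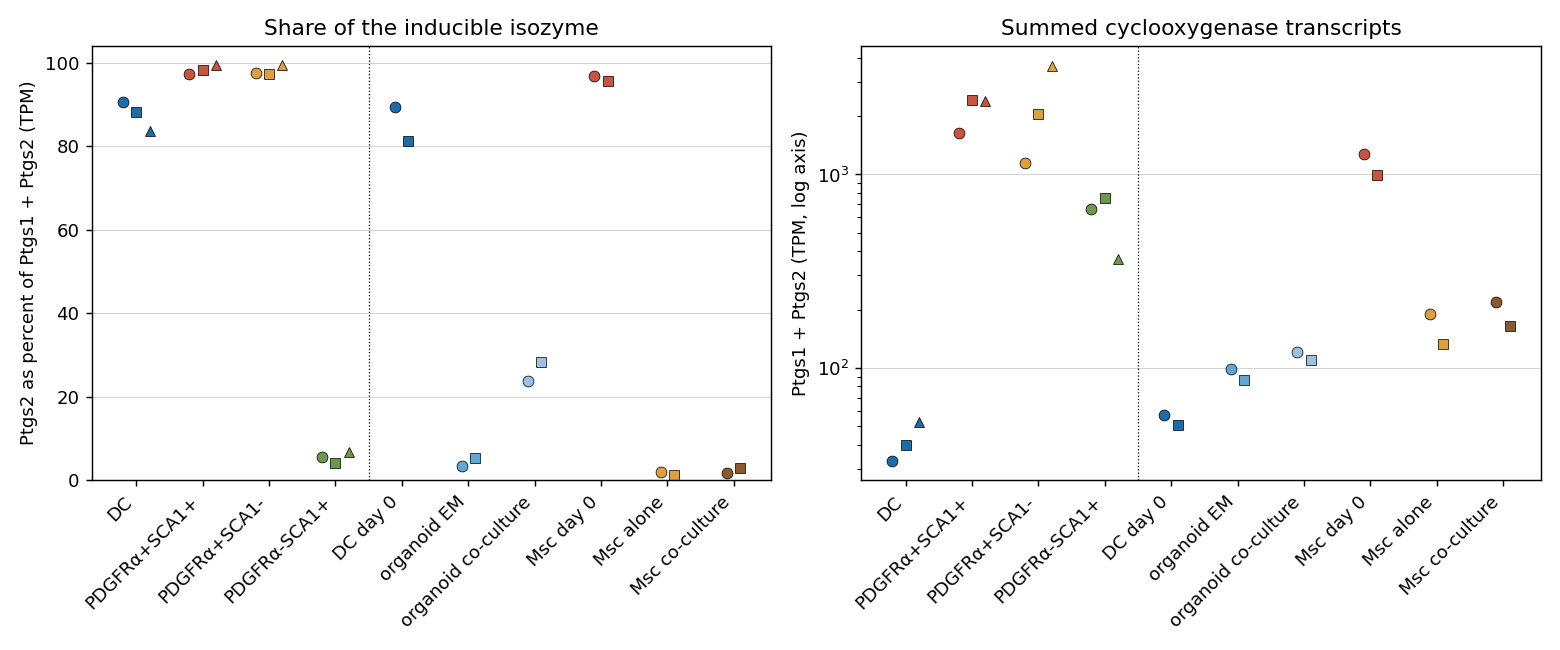
Left, Ptgs2 as a percent of Ptgs1 plus Ptgs2 in each sample (TPM, homeostasis with the reused totals undone). Right, the summed TPM of both genes on a log axis. Points are samples, circles, squares and triangles are mice A, E and F or replicates 1 and 2, and the dotted line parts the homeostasis from the transwell experiment. The share is over 95% in PDGFRα+ cells and day 0 Msc and under 7% in PDGFRα-SCA1+ cells, EM organoids and cultured Msc.

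Ptgs2 is itself an immediate early gene, and 10 others, Fos, Fosb, Jun, Junb, Egr1, Atf3, Ier2, Dusp1, Zfp36 and Nr4a1, were listed beside it. All 10 fell between day 0 and day 15 in EM organoids, in co-cultured organoids and in Msc alone, with median log2 differences of −4.41, −4.085 and −5.67, where the medians of all genes were 0.12, 0.0 and 0.185. Of all genes, 44.4%, 42.3% and 44.8% were called in these comparisons, in either direction. Their summed level was 12320 to 12520 TPM in day 0 DCs and 30980 to 32100 in day 0 Msc, against 700 to 1372 in the 4 cultured groups. In fresh PDGFRα+SCA1+ cells against DCs 7 of the 10 were higher and 1 lower, with 23.8% of all genes called. Nr4a1 was higher most, at 2.78 (adjusted p 1.16e-05, limma), and the summed level was 32010 to 36060 against 17370 to 21650. PDGFRα-SCA1+ cells, whose Ptgs2 overlapped that of DCs, summed to 24640 to 25000. Between co-cultured and EM organoids 3 were higher, Atf3 (2.58), Fos (2.20) and Dusp1 (0.815), and Egr1 was lower (−1.28), with 12.9% of all genes called. Per the study's methods, livers were digested with enzymes and dissociated to single cells before the sort, so day 0 and fresh values follow that handling. The part of an immediate early response, or of this handling, in the Ptgs2 values was not tested.

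The step before the cyclooxygenases was listed by 10 genes of arachidonate release, of which 7 were tested in the homeostasis experiment. Pla2g4a, the cytosolic phospholipase A2 that feeds cyclooxygenases, was at 14.4 to 20.7 in PDGFRα+SCA1+ cells, 25.9 to 39.3 in their SCA1- counterparts and 1.6 to 7.2 in DCs, and was called higher in PDGFRα+SCA1- cells (2.68, adjusted p 0.0109, limma). Mgll, the monoacylglycerol lipase, was at 152.7 to 201.9 in PDGFRα-SCA1+ cells and 1.825 to 8.842 in DCs, and was higher there (5.001, adjusted p 6.42e-06, limma). In culture Pla2g4a rose in ductal cells, from 2.25 to 7.345 TPM on day 0 to 15.6 to 23.05 in EM and 26.2 to 33.2 in co-cultured organoids (adjusted p 0.00398 and 0.000889, limma).

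Of 9 further prostanoid synthases and reductases, 8 were tested. In PDGFRα+SCA1+ cells 4 were lower and none higher than in DCs, with a median of −0.68 and 23.8% of all genes called. They were Ptges2 (−2.93, adjusted p 0.00105), another prostaglandin E synthase, Akr1b8 (−2.27, adjusted p 0.000456), the thromboxane synthase Tbxas1 (−2.36, adjusted p 0.0138) and the carbonyl reductase Cbr1 (−0.84, adjusted p 0.0489, limma). Ptges2 was at 55.82 to 75.05 in DCs and 3.30 to 12.7 in PDGFRα+SCA1+ cells, the reverse of Ptges. Ptges3, the cytosolic prostaglandin E synthase also known as a co-chaperone, was at 127 to 180 and 89.2 to 124.

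Of 5 other prostanoid receptors, 3 were tested. The thromboxane receptor Tbxa2r was higher than in DCs in PDGFRα+SCA1+ (4.80, adjusted p 0.000243), PDGFRα+SCA1- (4.13, adjusted p 0.0007) and PDGFRα-SCA1+ cells (6.24, adjusted p 3.22e-05, limma), at 36.0 to 47.4, 6.18 to 49.9 and 82.1 to 156 against 0 to 1.74. The prostacyclin receptor Ptgir was at 16.3 to 51.3 in PDGFRα+SCA1+ cells and had at most 0.0415 in DCs (4.74, adjusted p 0.0117, limma). In the transwell experiment Ptgir was at 12.48 to 31.57 TPM in day 0 Msc and 17.7 to 18.6 in co-cultured Msc, and was listed at 0 in both kinds of organoid. Among all 9 prostanoid receptors, Ptger4 alone was above 5 in every fresh ductal sample.

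Of 8 genes of transport and breakdown beside Hpgd, 7 were tested. Against DCs 3 were lower and none higher in PDGFRα+SCA1+ cells, with a median of −2.27 over the 7 and 23.8% of all genes called. Abcc4, an exporter of prostaglandins, was at 83.1 to 96.5 in DCs, 71.4 to 93.5 in PDGFRα-SCA1+ cells and 7.23 to 9.89 in the PDGFRα+SCA1+ sort (−3.21, adjusted p 0.00022, limma). The uptake carrier Slco2a1 was, like Hpgd, at its highest in the PDGFRα-SCA1+ sort, with 118.9 to 177.5 in PDGFRα-SCA1+ cells, 15.2 to 25.5 in DCs and 2.17 to 3.16 in PDGFRα+SCA1+ cells. It was higher in PDGFRα-SCA1+ cells than in DCs (2.97, adjusted p 0.00314, limma) and, at 63.9 to 80.9 against 28.4 to 36.2 TPM, higher in co-cultured than in EM organoids (1.14, adjusted p 0.0192, limma).

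Genes of EP receptor coupling through cAMP were 13, all tested. In PDGFRα+SCA1+ cells 5 were higher and none lower than in DCs, with a median of 1.23 and 23.8% of all genes called. The higher ones included the adenylate cyclase Adcy7 (4.50, adjusted p 0.000711) and the cAMP-responsive Crem (2.64, adjusted p 0.000174, limma). In EM organoids against DCs of day 0, 2 of these 13 were higher and 4 lower, with a median of −0.01 and 44.4% of all genes called, and Pde4b fell most (−4.72, adjusted p 4.48e-07, limma). Of 6 genes of the lipoxygenase branch, which competes for arachidonate, 4 were tested and none was called in PDGFRα+SCA1+ cells against DCs by limma, with a median of −0.37.

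The genes whose profile was most like that of a member, by the lower of its Pearson r over the 12 homeostasis and the 12 transwell samples among 13368 genes, are given as a description, since groups and not single samples set most of the spread. For Ptgis they were Col3a1 (0.993), Carmn (0.993) and Col1a2 (0.992). For Ptges they were the eotaxin gene Ccl11 (0.971), Kcne4 (0.964) and Foxf1 (0.963). For Ptgs2 they were Phlda1 (0.964), Sik1 (0.921) and Nop58 (0.901), and for Ptgs1 Gnai2 (0.937), Ostf1 (0.932) and Spop (0.907). Ptgds was nearest to Mfsd6l (0.972), Ptger4 to Frmd6 (0.878) and Hpgd to Asb13 (0.879).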

How the data were processed

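RNA of sorted or cultured cells was made into Smart-seq2 libraries. Per the labels and the study's methods, the authors mapped single-end reads to GRCm38 with STAR 2.5.0a and counted them with featureCounts 1.6.0 on Ensembl 87. The authors deposited RPKM for the transwell experiment, scaled here to TPM. The deposited homeostasis values are named TPM but are treated as a score, since column sums ran from 847270.0 to 1173511.4; once the reused totals were undone, 92.88% of low values were whole reads (tolerance 0.02 read). The 4 pooled columns were not used. All genes at 1 or more in at least 3 (homeostasis) or 2 (transwell) samples were fitted on log2(value + 1) in limma 3.58.1 (R 4.3.3), with a mean per group over the 12 samples of an experiment and a trended prior, and p-values were adjusted by Benjamini-Hochberg over all genes. The fit was tested on simulated data. Letters A, E and F mark the same mice in every fraction, with correlations of 0.010 to 0.097 between same-lettered deviations. The genes, lists and rules for naming genes (members at an unadjusted p under 0.05, and Ptgs1, Ptgs2, Ptgis and Ptger4 throughout) were chosen with earlier results of these data known. The overlap of 1 member with a neighbouring gene is not reported here.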

Additional observations from a re-analysis of the deposited data

Results flagged for a closer look

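For 5 genes the change from day 0 to co-culture differed between ductal cells and SCA1+ mesenchymal cells by the test of that difference itself (limma, adjusted over all genes). On the log2 scale, as the ductal minus the mesenchymal change, it was 7.03 for Ptgs2, 5.93 for Hpgd, 2.15 for Ptgds, 1.17 for Ptgs1 and −1.24 for Ptgis. Of 19 alternatives run, none lost the call of Ptgs2 or Hpgd. That of Ptgds was lost in 11, that of Ptgs1 in 7 and that of Ptgis in 2. In ductal cells Ptgis went from 14 and 19 reads to 2 and 0, so its value depends on the pseudocount of 1. Hpgd rose on the mean in ductal cells, where the change itself missed the threshold, and fell in the SCA1+ sort. On day 0 that sort also held the hepatocyte list at 18350 to 23020 TPM, against at most 400.3 after culture. The part of such transcripts in the Hpgd and Ptgds changes was not tested. No cause was tested.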

How the results depend on the processing

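Of 58 called differences, 40 kept their call under every alternative run and 18 lost it under at least 1. Between co-cultured and EM organoids 1 member instead of 2 was called with quantile normalization and with only the 2 groups fitted, and 1 to 2 with 1 sample left out. Of the differences between lineages, 2 to 5 were called with 1 sample left out. Differences near 0 changed sign. Between PDGFRα+SCA1+ and PDGFRα+SCA1- cells these were Ptgs1 (0.0632 with quantile normalization, −0.52 to 0.46 with 1 sample left out), Ptgs2 (−0.14, and −0.33 to 0.53) and Ptgis (−0.0491 to 0.29 with 1 sample left out). Between the organoids it was Ptgs1 (0.0003 with quantile normalization, −0.17 to 0.0557 with 1 sample left out), and between co-cultured Msc and Msc alone Ptger4 (0.0087 with quantile normalization, 0.0064 on RPKM, −0.21 to 0.18 with 1 sample left out). The causes were not tested. Quantile normalization moved the share of higher calls from 34.6% to 46.1% (PDGFRα+SCA1- over DCs), 74.0% to 57.4% (PDGFRα+SCA1+ over PDGFRα+SCA1-) and 58.1% to 45.7% (PDGFRα-SCA1+ over PDGFRα+SCA1+). With only the groups compared fitted, all-gene counts went from 4054 to 6662 (PDGFRα+SCA1+ over DCs), 8363 to 5299 (day 0 Msc over DCs), 2348 to 997 (the organoids) and 8127 to 4299 (Msc alone over day 0). With the replicate block, Ptger3 in PDGFRα+SCA1+ cells against DCs had an adjusted p of 0.0574, and Ptger1 in co-cultured Msc against organoids, where the replicates share only a number, one of 0.0425 (limma); no other member's call changed. The block left 20 of 100 calls over all genes between the PDGFRα+ fractions and 5 of 23 between co-cultured Msc and Msc alone. Using deposited values for the isozyme share, an alternative chosen after seeing the data, moved it by less than the spread between replicates.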
